A study of Rattus norvegicus with 12 samples.

Results

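The members are 190 array probes for 190 solute carrier genes, the named families of membrane transporters whose symbols begin with Slc. They were chosen by symbol and detection: the platform annotation symbol had to read Slc, digits and the letter a, or Slco, and the probe had to have a detection p below 0.05 on at least 3 of the 12 arrays. Of 296 probes whose symbol fits, 102 missed the detection rule, and 4 that passed it were left out by name (Slc17a6, Slc18a2, Slc40a1 and Slc6a3). The 190 members, 183 with the letter a and 7 Slco genes, stand among 13018 probes tested and 22523 on the array. 2 of them are not transporters by their names, since Slc4a1ap is an adaptor protein gene and Slc7a6os lies opposite Slc7a6.

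The series measured RNA from male Wistar rat fetuses on gestational day 20 with 1-colour Illumina RatRef-12 arrays. The 4 groups of 3 arrays were pituitaries of fetuses whose dams received TCDD (tetrachlorodibenzo-p-dioxin, a persistent pollutant) orally in corn oil on gestational day 15, control pituitaries, hypothalami after the same TCDD exposure, and control hypothalami. The series text gives the dose as 1 µg/kg and the sample labels as 1 mg/kg. The labels name neither the treatment of control dams nor separate litters for the samples of a group, so each p-value reflects only how far these samples lay apart, and that spread may be technical. TCDD binds the aryl hydrocarbon receptor, a transcription factor, and the exposure of the fetuses was through the dam.

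Solute carriers move ions, sugars, amino acids, vitamins, hormones and drugs across the plasma membrane and the membranes of organelles, either down a gradient or coupled to an ion gradient. In the developing brain they feed neurons, clear transmitters and set the chloride gradient on which GABA acts. In the pituitary and at the borders of the brain, members of the organic ion and monocarboxylate families carry thyroid hormone, and members of the organic anion family clear metabolites from the meninges and the cerebrospinal fluid.

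Raw median intensities ran from 92.5 to 120.8 per array, and 47.4% to 54.5% of probes were detected. The labelled tissues carried their markers: 10 of 10 tested pituitary markers were higher in control pituitaries than in control hypothalami, and 10 of 12 hypothalamic markers were lower, with the other 2 not past the test. Markers of other cell types were also compared between the control tissues. Markers of mesenchyme and meninges were higher in control pituitaries for 9 of 9 tested genes, with a log2 summed level of at least 16.89 on each control pituitary array, against 12.39 to 14.66 in control hypothalami. Log2 summed levels of blood markers, higher for 4 of 5, were 15.41 to 15.58 in control pituitaries, against 15.21 to 15.29 in control hypothalami. Log2 summed levels of macrophage markers, higher for 4 of 5, were 12.65 to 12.85 in control pituitaries, against 11.09 to 11.32 in control hypothalami. Skeletal muscle markers, 4 of 7 higher and 1 lower, summed to 10.07 to 10.72 in control pituitaries, against 11.06 to 11.33 in control hypothalami. Endothelium markers, 2 of 4 higher, summed to 12.38 to 12.52 in control pituitaries, against 12.34 to 12.54 in control hypothalami. Choroid plexus markers were higher for 3 of 6 and mast cell markers for 3 of 4, with 1 lower. Log2 summed levels of neuron markers, lower for 7 of 9, were 14.01 to 14.46 in control pituitaries, against 16.54 to 16.66 in control hypothalami. Log2 summed levels of glial markers, lower for 8 of 10, were 11.96 to 12.80 in control pituitaries, against 15.47 to 15.50 in control hypothalami. An offset of 16 was added before the log2 step, so a list at background does not read 0. These levels were therefore not used to judge whether a cell type was present or absent. The part of these cells in the members' tissue differences was not tested. In whole tissue, fewer cells of a type and less RNA per cell cannot be told apart.

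Pituitary TCDD replicate 5 stood apart, with the lowest weight (0.461) when arrays were weighted by their fit. Its 3 tested sensory neuron markers had a log2 summed level of 14.58, against 11.12 to 11.14 on the other TCDD pituitary arrays and 9.68 to 12.23 on control pituitary arrays. For several members below, the pituitary TCDD difference is given with and without that array.

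The 4 promoters below are printed because the results turn on their genes: Slc4a4 and Slc12a5 differed widely between the tissues, in opposite directions, and Slc13a3 and Slc16a11 belong to a set that varied together between arrays. Each run is the 250 bases before the annotated start, 5′ to 3′ on the gene's strand, from RefSeq on build GRCr8. Capitals mark matches on either strand to GCGTG (the core bound by the aryl hydrocarbon receptor dimer), CACGTG (an E-box), CCAAT or TATAAA.
Slc4a4 (chr14:19468283-19468532, minus strand): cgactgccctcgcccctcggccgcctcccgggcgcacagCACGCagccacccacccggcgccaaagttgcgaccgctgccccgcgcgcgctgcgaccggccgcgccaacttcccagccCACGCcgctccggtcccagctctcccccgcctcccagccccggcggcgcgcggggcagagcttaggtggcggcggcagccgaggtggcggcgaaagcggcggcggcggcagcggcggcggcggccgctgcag
Slc12a5 (chr3:174115583-174115832, plus strand): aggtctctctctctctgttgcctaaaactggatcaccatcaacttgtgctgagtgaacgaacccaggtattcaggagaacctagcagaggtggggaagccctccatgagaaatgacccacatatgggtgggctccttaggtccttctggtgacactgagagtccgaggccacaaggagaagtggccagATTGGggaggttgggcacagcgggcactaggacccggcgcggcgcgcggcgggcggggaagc
Slc13a3 (chr3:174623894-174624143, minus strand): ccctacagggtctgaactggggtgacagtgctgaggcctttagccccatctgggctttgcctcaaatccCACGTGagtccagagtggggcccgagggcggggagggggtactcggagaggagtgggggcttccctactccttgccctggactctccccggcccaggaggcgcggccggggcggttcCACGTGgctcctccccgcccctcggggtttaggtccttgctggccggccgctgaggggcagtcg
Slc16a11 (chr10:55427705-55427954, plus strand): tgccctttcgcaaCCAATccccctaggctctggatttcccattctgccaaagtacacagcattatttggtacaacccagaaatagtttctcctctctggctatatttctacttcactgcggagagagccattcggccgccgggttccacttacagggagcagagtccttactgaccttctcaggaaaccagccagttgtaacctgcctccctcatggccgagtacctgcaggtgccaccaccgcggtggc
Promoter entries matched 151 of the 190 members. GCGTG was found in 40.4% of them, in 43.4% of the promoters of all tested genes and in 27.2% of all promoters in the table. The share with CACGTG was 13.9% for members, against 8.01% for tested genes and 5.79% for all promoters. Matches to different motifs can share bases at their ends. CCAAT stood in 37.7% of member promoters, 35.3% of those of tested genes and 34.3% of all, and TATAAA in 6.62%, 7.42% and 13.1% of the same sets. In these windows Slc4a4 held 2 matches to GCGTG, Slc13a3 held 2 to CACGTG, and Slc12a5 and Slc16a11 held 1 each to CCAAT. The windows of Slc44a1, Slc6a20a and Slc22a8, genes described further on, held none of the 4 motifs.

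The tissues differed in most transporters. Between control pituitaries and control hypothalami, 141 of 190 members passed the test, 67 higher and 74 lower in the pituitary, which is 74.2% against 69.5% of all tested probes (limma moderated test, Benjamini-Hochberg adjusted over all tested probes, threshold 0.05). By direction, 35.3% of members and 33.7% of all probes were higher, and 38.9% of members and 35.9% of all probes were lower. Differences beyond 1 log2 unit were found for 39 members in the direction of the pituitary (20.5%, against 15.7% of all probes) and for 30 in the direction of the hypothalamus (15.8%, against 14.7%). The median size of a member's difference was 0.66, against 0.59 over all tested probes. Some members had to differ by the choice of members, since 24 met the detection rule through pituitary arrays alone and 15 through hypothalamus arrays alone. The TCDD arrays, which that contrast did not use, gave 69 higher and 71 lower (73.7%, against 70.2% of all probes, of which 33.4% were higher and 36.8% lower), and 124 members passed in both contrasts with the same sign and 0 with opposite signs. Differences below are log2 values of control pituitary minus control hypothalamus with the model's SE and 3 arrays a group. Where a probe was on no array of a group above background, the fold is a bound, set from the lowest signal detected on those arrays. Such a bound makes no allowance for the spread between arrays. Where only some arrays of a group were above background, the difference is given as read.

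**Figure D1:**
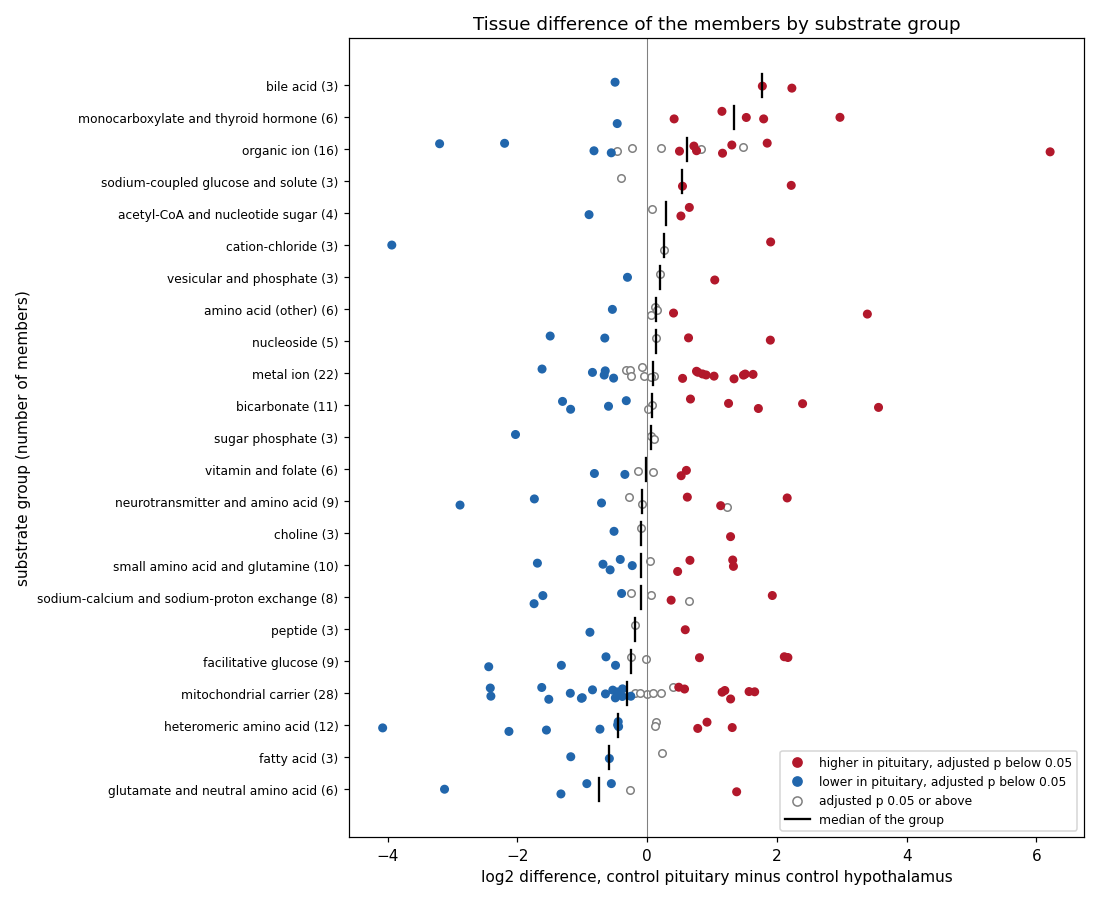
Each point is 1 member, placed by its log2 difference of control pituitary minus control hypothalamus (x axis) in its substrate group (y axis, groups of at least 3 members). Filled points passed the test (red higher, blue lower in pituitary) and the black line is the group's median. Slc47a1 lies farthest right at 6.21, and most points of the monocarboxylate group lie right of 0, with its median at 1.34.

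Among transporters of organic ions, 7 of 16 members were higher in the pituitary, 4 were lower and 5 did not pass. Slc47a1, which exports organic cations in exchange for protons, had the largest difference of any member. It read 11.60, 11.45 and 12.30 in control pituitaries, against 5.17, 6.58 and 4.97 in control hypothalami, and 12.24, 11.85 and 11.89 in TCDD pituitaries, against 5.09, 6.12 and 5.34 in TCDD hypothalami. The difference was 6.21 ± 0.39 (SE, adjusted p = 2.47e-08), and every pituitary array lay more than 4 log2 units above every hypothalamus array. Control hypothalamus replicates 1 and 5 read below the lowest signal detected on those arrays (5.62 and 5.56). So did TCDD hypothalamus replicates 1 and 4 (5.63 and 5.74). The size of the difference therefore depends on readings at background. In both hypothalamus groups the replicate numbered 3 was the highest for this gene.

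Slco1c1, a transporter of thyroxine at the brain's barriers, ran the other way. It read 7.79, 6.84 and 8.18 in control pituitaries, against 10.75, 10.86 and 10.80 in control hypothalami, a difference of -3.20 ± 0.29 (adjusted p = 7.55e-07). The hypothalamus arrays were tight and the pituitary arrays spread over more than 1 log2 unit. The other Slco genes mostly lay on the pituitary's side, with 5 of 7 higher: Slco2b1, an organic anion carrier of broad range, differed by 1.85 ± 0.28, Slco1a5 by 0.76 ± 0.20 and Slco3a1 by 0.72 ± 0.16. Slco2b1 readings on control hypothalamus replicates 1 and 5 (5.46 and 5.37) lay below the lowest signal detected on those arrays (5.62 and 5.56). The prostaglandin transporter Slco2a1 was on no control hypothalamus array above background and was at least 1.82-fold higher in the pituitary (adjusted p = 4.59e-06).

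The organic cation transporters Slc22a2 and Slc22a3 are neighbours on chromosome 1, and they lay on opposite sides. Slc22a2 was higher in the pituitary (1.30 ± 0.36, adjusted p = 0.00573). Slc22a3 averaged 5.16 ± 0.25 in control pituitaries, where no array had it above background, and 7.36 ± 0.06 in control hypothalami (SD, n = 3 each), so it was at least 3.62-fold lower in the pituitary (adjusted p = 8.85e-08). Slc22a17, a receptor for the iron-binding protein lipocalin, was lower by a smaller step (-0.55 ± 0.09). The organic anion exchangers Slc22a6 (1.47 ± 0.79, adjusted p = 0.116) and Slc22a8 (0.83 ± 0.41, adjusted p = 0.0926) did not pass the test, and their replicates lay far apart. Slc22a8 passed without pituitary control replicate 1 (difference 1.16, adjusted p = 0.0319) and with pituitary TCDD replicate 5 left out of the model (0.83, adjusted p = 0.0162), and without hypothalamus control replicate 3 Slc22a6 passed (2.06, adjusted p = 0.0481).

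Bicarbonate and other anion transporters (SLC4 and SLC26) were divided, with 5 of 11 members higher, 4 lower and 2 not past the test. The 4 lower include the adaptor protein gene Slc4a1ap (-0.32 ± 0.10), which is not a transporter. Its call was lost with the authors' values (-0.02, adjusted p = 0.786). Slc4a4, which moves bicarbonate together with sodium, read 8.63, 8.50 and 8.77 in control pituitaries, against 4.95, 5.18 and 5.08 in control hypothalami. Each hypothalamus reading was below the detection level, so the pituitary was at least 8.33-fold higher (adjusted p = 2.51e-09). The chloride-bicarbonate exchangers were split between the tissues. Slc4a2 differed by 2.40 ± 0.14 (adjusted p = 1.34e-08), with 9.66, 9.66 and 9.86 in control pituitaries, against 7.12, 7.30 and 7.57 in control hypothalami, while its relative Slc4a3 was lower in the pituitary (-1.31 ± 0.12, adjusted p = 8.02e-07). The red cell anion exchanger Slc4a1 was higher (1.25 ± 0.13), as were 4 of 5 blood markers. Slc26a7 was at least 1.94-fold higher and the sulphate transporter Slc26a1 at least 1.76-fold lower.

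The cation-chloride family held members on both sides. Slc12a5, the potassium-chloride exporter of mature neurons, read 7.02, 6.40 and 6.48 in control pituitaries, against 10.28, 10.73 and 10.70 in control hypothalami, a difference of -3.94 ± 0.17 (adjusted p = 1.58e-09). Its widely expressed relative Slc12a4 read 7.92, 7.75 and 7.81 in control pituitaries, against 5.71, 6.24 and 5.82 in control hypothalami, a difference of 1.90 ± 0.16 (adjusted p = 2.83e-07). The 2 genes were thus called in opposite directions with no overlap of arrays. Among exchangers that remove calcium or protons in return for sodium, Slc8a3 was lower in the pituitary (-1.74 ± 0.14, adjusted p = 2.62e-07) and Slc9a2 higher (1.93 ± 0.31, adjusted p = 0.000108). Slc24a3 was at least 2.57-fold lower in the pituitary. The proton exchanger Slc9a5 did not pass (0.06 ± 0.14), nor did Slc9a8 (adjusted p = 0.0742), which passed without hypothalamus control replicate 3 (adjusted p = 0.0109), with median scaling (0.0372) and with the authors' values (0.0248).

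**Figure D2:**
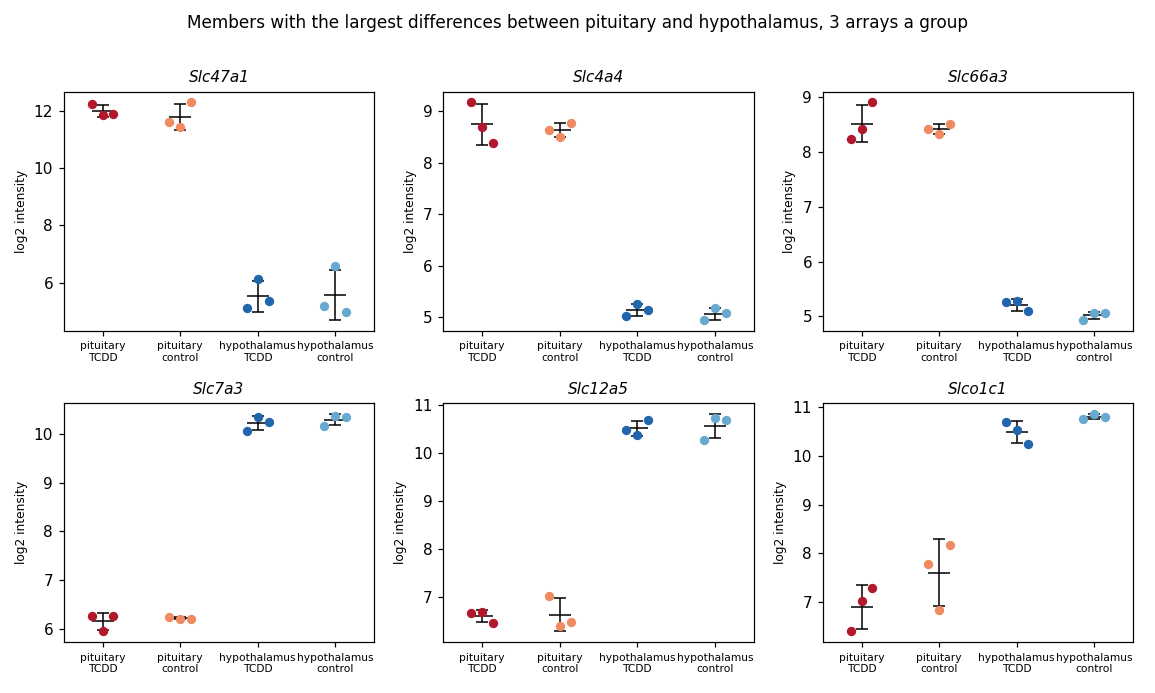
Points are single arrays on the log2 intensity scale (y axis) in the 4 groups (x axis), and the bars show the mean and SD of 3 arrays. Slc47a1, Slc4a4 and Slc66a3 are higher on every pituitary array than on any hypothalamus array, and Slc7a3, Slc12a5 and Slco1c1 are lower on every pituitary array.

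Glutamate and neutral amino acid transporters (SLC1) were mostly lower in the pituitary, with 4 of 6 members lower and 1 higher. Slc1a1, the glutamate transporter of neurons, read 8.60, 8.32 and 8.69 in control pituitaries, against 11.58, 11.74 and 11.67 in control hypothalami, a difference of -3.12 ± 0.15 (adjusted p = 2.49e-09). The glial glutamate transporters differed less, Slc1a3 by -1.33 ± 0.21 and Slc1a2 by -0.55 ± 0.13, in tissue where glial markers were also lower for 8 of 10. The neutral amino acid exchanger Slc1a5 was the exception, at 1.38 ± 0.20 (adjusted p = 5.61e-05), while Slc1a4, its closest relative, was lower (-0.93 ± 0.18).

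In the heteromeric and cationic amino acid group (SLC3 and SLC7), 7 of 12 members were lower, 3 higher and 2 not past the test. The 7 lower include Slc7a6os (-0.73 ± 0.12), which is not a transporter by its name. Slc7a3, a carrier of arginine and lysine, had the largest difference of any member in that direction. It read 6.25, 6.20 and 6.20 in control pituitaries, against 10.16, 10.37 and 10.35 in control hypothalami, and 6.25, 5.95 and 6.26 in TCDD pituitaries, against 10.07, 10.35 and 10.24 in TCDD hypothalami. Readings within a tissue lay within 0.5 log2 units of each other, and the difference was -4.08 ± 0.11 (adjusted p = 7.81e-11). Slc7a1, which carries the same amino acids, was at least 1.07-fold lower, a bound close to 1. The large neutral amino acid carrier Slc7a5 was lower (-1.55 ± 0.20, adjusted p = 1.64e-05), but its heavy chain Slc3a2 did not pass (0.13 ± 0.10, 95% interval -0.09 to 0.36) except with the authors' values (0.20, adjusted p = 0.0425). The other heavy chain, Slc3a1, was lower (-2.13 ± 0.32), whereas its light chain Slc7a9 was higher (0.92 ± 0.19). Slc7a10, which exchanges small neutral amino acids, was higher too (1.31 ± 0.15).

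The sodium-coupled glutamine carriers (SLC38) sit side by side on chromosome 7 in part, and neighbours differed. Slc38a2 was higher in the pituitary (1.33 ± 0.12, adjusted p = 8.87e-07), Slc38a4 next to it was higher by less (0.47 ± 0.12), and Slc38a1 on its other side was lower (-0.23 ± 0.09, adjusted p = 0.029). The Slc38a1 call missed the threshold when any control array but hypothalamus replicate 1 was left out (-0.25 to -0.20, adjusted p 0.0509 to 0.0855) and with median scaling (-0.07, adjusted p = 0.535), and with the authors' own values the sign turned (0.09, adjusted p = 0.0202). Slc38a5 read 8.80, 8.51 and 9.35 in control pituitaries, against 10.54, 10.66 and 10.54 in control hypothalami, a difference of -1.69 ± 0.17. With the proton-coupled SLC36 carriers included, 4 of 10 members were higher, 5 lower and 1 not past the test. Slc66a3, a protein of the lysosomal transporter family whose substrate is not established, read 8.41, 8.32 and 8.50 in control pituitaries, against 4.94, 5.06 and 5.06 in control hypothalami, none of the second set above background. It was at least 7.15-fold higher in the pituitary (adjusted p = 1.31e-09), while Slc66a1, a lysosomal exporter of cationic amino acids, did not pass (0.16 ± 0.13). It passed without hypothalamus control replicate 1 (0.31, adjusted p = 0.0332) and with median scaling (0.30, adjusted p = 0.0436).

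Transmitter transporters (SLC6) gave 3 higher, 3 lower and 3 not past the test. Slc6a15, a neutral amino acid carrier of neurons, read 7.32, 8.14 and 7.66 in control pituitaries, against 10.51, 10.72 and 10.56 in control hypothalami, a difference of -2.89 ± 0.46 (adjusted p = 0.0001). The glycine transporter Slc6a9 was lower (-1.74 ± 0.13, adjusted p = 1.23e-07) and so was the proline transporter Slc6a7 (-0.70 ± 0.11). Slc6a6, which takes up taurine, was higher (1.13 ± 0.15), as was the noradrenaline transporter Slc6a2 (0.62 ± 0.15). Slc6a13, a GABA and taurine carrier known from the meninges, read 8.41, 10.18 and 9.33 in control pituitaries, against 7.12, 8.46 and 5.87 in control hypothalami. Its difference of 2.16 ± 0.77 passed narrowly (adjusted p = 0.0236) and missed the threshold without hypothalamus control replicate 5 (1.52, adjusted p = 0.115) or 1 (2.14, adjusted p = 0.0554) and without pituitary control replicate 2 (1.72, adjusted p = 0.0932) or 3 (2.15, adjusted p = 0.0535), and with no detection filter (adjusted p = 0.0505). The serotonin transporter Slc6a4 did not pass (-0.28 ± 0.27).

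For storage in vesicles, Slc18a3, which loads acetylcholine, was lower (-0.67 ± 0.20, adjusted p = 0.00928), a call lost with the authors' values (-0.11, adjusted p = 0.0801). Slc18a1, which loads monoamines in endocrine cells, did not pass (0.12 ± 0.12). Slc17a9, which loads nucleotides, was above background on no hypothalamus array and was at least 1.68-fold higher in control pituitaries (adjusted p = 0.000153). Between TCDD arrays it did not pass, with 5.44, 5.60 and 5.37 in pituitaries, against 5.53, 5.18 and 5.45 in hypothalami. The phosphate transporter homologue Slc17a2 was lower (-0.30 ± 0.12, adjusted p = 0.0325) and missed the threshold without hypothalamus control replicate 1 (-0.21) or 3 (-0.31) and without pituitary control replicate 1 (-0.28) or 3 (-0.24), with adjusted p of 0.06 to 0.136. It was also lost without background correction (-0.15, adjusted p = 0.0741) and with median scaling (-0.28, adjusted p = 0.0512).

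Sugar transporters were divided by member. Of the 9 in the facilitative group (SLC2 and SLC50), 3 were higher, 4 lower and 2 not past the test. Slc2a4, the insulin-responsive glucose transporter, was at least 3.12-fold higher in the pituitary (adjusted p = 2.52e-07), with 7.11, 7.13 and 7.41 in control pituitaries, against 5.14, 5.02 and 4.98 in control hypothalami. Slc50a1, a sugar exporter, was higher as well (2.11 ± 0.18, adjusted p = 4.12e-07). On the other side stood Slc2a6 (-2.44 ± 0.47, adjusted p = 0.000471), the fructose transporter Slc2a5 (-1.32 ± 0.16) and the neuronal glucose transporter Slc2a3 (-0.49 ± 0.11). The proton-linked glucose carrier Slc45a1 was lower by more (-2.04 ± 0.18, adjusted p = 6.32e-07). Slc5a6, the sodium-coupled carrier of biotin and pantothenate, was higher (2.22 ± 0.15, adjusted p = 4.93e-08), and the iodide carrier Slc5a5 did not pass (-0.41 ± 0.37).

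In the monocarboxylate family (SLC16), 5 of 6 members were higher in the pituitary and 1 was lower. Slc16a10, a carrier of aromatic amino acids and thyroid hormones, read 7.48, 7.20 and 7.83 in control pituitaries, against 5.73, 5.84 and 5.56 in control hypothalami, a difference of 1.79 ± 0.17 (adjusted p = 8.89e-07). The lactate carriers were both higher, Slc16a3 by 1.53 ± 0.18 and Slc16a1 by 0.41 ± 0.12. Slc16a6 was higher in controls (1.15 ± 0.18), whereas its difference between TCDD arrays was 0.20 ± 0.18 and did not pass (adjusted p = 0.337). Slc16a11 and Slc16a13 are neighbours on chromosome 10. The Slc16a11 readings of control hypothalamus replicates 1 and 5, given next, lay below the lowest signal detected on those arrays (5.62 and 5.56). Slc16a11 read 7.78, 9.27 and 8.53 in control pituitaries, against 5.27, 6.55 and 4.86 in control hypothalami (2.97 ± 0.60, adjusted p = 0.000713), and Slc16a13 was lower in the pituitary (-0.46 ± 0.16, adjusted p = 0.0234), a call lost without hypothalamus control replicate 3 (-0.35, adjusted p = 0.0997) or pituitary control replicate 1 (-0.33, adjusted p = 0.108). It was also lost with median scaling (-0.33, adjusted p = 0.102) and with the authors' values (-0.03, adjusted p = 0.809).

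Mitochondrial carriers (SLC25) were the largest family, with 28 members, and more of them were lower than higher: 15 lower, 7 higher and 6 not past the test. The citrate carrier Slc25a1, which supplies the cytosol with acetyl units for lipid synthesis, read 10.42, 10.51 and 10.27 in control pituitaries, against 12.69, 12.71 and 13.03 in control hypothalami (-2.41 ± 0.13, adjusted p = 6.66e-09). The uncoupling protein homologues of brain, Slc25a27 (-2.42 ± 0.15) and Slc25a14 (-1.63 ± 0.17), were lower as well. So were the acylcarnitine carrier Slc25a20 (adjusted p = 3.76e-06) and Slc25a46, a protein of the outer membrane (-1.19 ± 0.11). The muscle and brain form of the adenine nucleotide carrier, Slc25a4, was lower by 0.38 log2 units, and the phosphate carrier Slc25a3 did not pass (-0.11 ± 0.08). Higher in the pituitary were the ATP-magnesium carrier Slc25a24 (1.66 ± 0.23, adjusted p = 2.93e-05), the folate carrier Slc25a32 (1.29 ± 0.18), the ornithine carrier Slc25a15 (1.20 ± 0.13) and the glutathione carrier Slc25a39 (1.15 ± 0.11). Slc25a35 was at least 2.57-fold higher.

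Metal ion transporters gave 10 higher, 5 lower and 7 not past the test among 22 members. Zinc carriers of both families were divided, with 2 higher and 2 lower of 5 in SLC30 and 5 higher and 2 lower of 11 in SLC39. Slc30a7, a carrier into the Golgi, differed by 1.63 ± 0.19 (adjusted p = 7.69e-06), Slc39a13 by 1.48 ± 0.11, Slc39a7 by 1.03 ± 0.09 and Slc30a5 by 0.91 ± 0.10. The vesicular zinc carrier Slc30a2 was lower (-0.52 ± 0.12), as was Slc39a3 (-0.66 ± 0.11), and Slc39a9 (-0.25 ± 0.11) and Slc39a11 (-0.27 ± 0.17) did not pass. The Slc30a2 call was lost with the authors' values (-0.06, adjusted p = 0.302). Slc39a10, a zinc importer of the cell surface, was lower (-1.62 ± 0.15, adjusted p = 8.45e-07), and Slc30a10, a manganese exporter, was lower too (-0.65 ± 0.16). The copper carriers Slc31a1 (0.76 ± 0.14) and Slc31a2 (0.85 ± 0.14), close together on chromosome 5, were both higher. Slc11a1, a metal transporter of macrophage phagosomes, was at least 1.99-fold higher, as were 4 of 5 macrophage markers. Slc39a2 was at least 1.86-fold higher.

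Among the smaller families, Slc10a3 (2.23 ± 0.14, adjusted p = 3.19e-08) and Slc10a7 (1.77 ± 0.13) of the bile acid family were higher, and the sulphated steroid carrier Slc10a6 was lower (-0.50 ± 0.16), a call lost without pituitary control replicate 3 (-0.44, adjusted p = 0.0507), with median scaling (-0.38, adjusted p = 0.0664) or with the authors' values (-0.08, adjusted p = 0.0969). The lysosomal nucleoside transporter Slc29a3 was higher (1.90 ± 0.12, adjusted p = 2.47e-08), and Slc29a4, which takes up monoamines, was at least 2.08-fold lower. The fatty acid transporter Slc27a4 was lower (-1.18 ± 0.14) and Slc27a1 did not pass (0.23 ± 0.10). Slc27a1 passed without background correction (0.21, adjusted p = 0.0458), with median scaling (0.29, adjusted p = 0.0475) and with the authors' values (0.44, adjusted p = 0.000132). The peptide family was split between Slc15a4, lower at -0.88 ± 0.10, and Slc15a3, at least 1.23-fold higher, a call lost with the authors' values (adjusted p = 0.0544). Slc44a4 was higher (1.28 ± 0.16) and Slc44a2 lower (-0.51 ± 0.11) in the choline-like family. Slc35a1, which brings CMP-sialic acid into the Golgi, was lower (-0.90 ± 0.12), and Slc35a3, which brings UDP-N-acetylglucosamine there, was higher (0.52 ± 0.14). Slc43a2, a neutral amino acid carrier, was lower (-0.54 ± 0.16), its relative Slc43a1 did not pass (adjusted p = 0.289), and Slc46a3 was higher (0.60 ± 0.21, adjusted p = 0.0203). The Slc46a3 call was lost without hypothalamus control replicate 1 (0.58, adjusted p = 0.0527) or 5 (0.51, adjusted p = 0.0749) and without pituitary control replicate 1 (0.50, adjusted p = 0.0784). Slc48a1, a haem transporter of endosomes, was lower (-1.03 ± 0.14), and so was Slc49a4, a carrier of the lysosomal membrane (-1.16 ± 0.08).

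Partner proteins of these carriers also differed between tissues. Of 16 tested partner and regulator genes, 5 were higher and 10 lower in control pituitaries. For this list and the 2 that follow, the shares over all tested probes were 33.7% higher and 35.9% lower. Basigin (Bsg), the chaperone of lactate carriers, was higher (1.03 ± 0.10), as was embigin (Emb, 0.65 ± 0.11). The pyruvate carrier subunits Mpc1 (-0.86 ± 0.11) and Mpc2 (-0.70 ± 0.14) were lower. Proton pump subunits that energise vesicle loading were lower too, with Atp6v0a1 at -1.41 ± 0.15, Atp6v1a at -1.22 ± 0.10 and Atp6v1b2 at -1.17 ± 0.10. ABC transporters, the ATP-driven exporters, gave 6 higher and 6 lower of 17, and aquaporins and ATP-driven ion pumps gave 3 higher and 6 lower of 12. Within these lists the water channel Aqp1 averaged 10.52 ± 0.15 in control pituitaries and 5.17 ± 0.17 in control hypothalami (SD, n = 3 each), where no array had it above background, and Abcb1b, a drug exporter, was lower (-1.95 ± 0.16).

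Exposure to TCDD changed no member past the threshold. In the pituitary 0 of 190 members passed, against 0.668% of all tested probes, while 6 of 6 tested targets of the aryl hydrocarbon receptor rose there. In the hypothalamus 0 of these 6 passed by limma, and 2 had an unadjusted p below 0.05. In the pituitary 21 members (11.1%) had an unadjusted p below 0.05, against 11.5% of all tested probes. The pituitary groups did not overlap for 16 members that were higher after TCDD (8.42%, against 9.16% of all probes) and 18 that were lower (9.47%, against 10.8%). Pituitary estimates ran from -0.88 to 0.83 with a median of -0.03, against -0.01 over all probes, and the 95% interval lay within 1 log2 unit of 0 for 174 members. Without pituitary TCDD replicate 5 the count stayed at 0.

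Slc17a9, the vesicular nucleotide transporter, had the smallest p. It read 5.44, 5.60 and 5.37 in TCDD pituitaries, against 6.69, 6.31 and 5.97 in control pituitaries, and was above background on 1 of 3 TCDD and 3 of 3 control arrays. All TCDD readings lay below all control readings, with a difference of -0.85 ± 0.17 (95% interval -1.23 to -0.47, adjusted p = 0.0503). It passed in 6 of 21 other settings, over which the adjusted p ran from 0.0198 to 0.169, among them without pituitary control replicate 3 (-1.03, adjusted p = 0.0208) or hypothalamus control replicate 1 (-0.85, adjusted p = 0.0489). The estimate without pituitary TCDD replicate 5 was -0.80 (adjusted p = 0.11). Among pituitary markers, which include the gonadotropin subunits the series set out to follow, 4 of 10 fell in the same samples (Lhb, Fshb, Ghrhr and Gnrhr), as did 4 of 7 skeletal muscle and 2 of 4 mast cell markers. The pituitary markers had log2 summed levels of 16.05 to 16.25 in TCDD pituitaries, against 16.22 to 16.40 in control pituitaries. Muscle markers had 9.21 to 9.96 in TCDD pituitaries, against 10.07 to 10.72 in control pituitaries, and mast cell markers had 8.29 to 8.49 in TCDD pituitaries, against 9.23 to 9.99 in control pituitaries. The part of these cells in the Slc17a9 difference was not tested.

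Slc44a1, a choline transporter of the plasma membrane, was next. It read 6.22, 5.70 and 6.19 in TCDD pituitaries, against 5.30, 5.51 and 5.44 in control pituitaries, and was above background on 3 of 3 TCDD and 1 of 3 control arrays. The groups did not overlap, and the difference was 0.62 ± 0.13 (95% interval 0.33 to 0.91, adjusted p = 0.0682). It passed in 2 of 21 other settings, over which the adjusted p ran from 0.00963 to 0.241, and without pituitary TCDD replicate 2 it was 0.79 (adjusted p = 0.00963). Without pituitary TCDD replicate 5 it was 0.54 (adjusted p = 0.154). The other choline-like genes, Slc44a2 (0.02 ± 0.11) and Slc44a4 (-0.05 ± 0.16), lay near 0.

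The next members by p were small in size. On the higher side, the fatty acid transporter Slc27a1 differed by 0.35 ± 0.10 (adjusted p = 0.203), the noradrenaline transporter Slc6a2 by 0.46 ± 0.15, the creatine transporter Slc6a8 by 0.35 ± 0.13, the peptide transporter Slc15a3 by 0.37 ± 0.14 and Slc25a46 by 0.29 ± 0.11. On the lower side, Slc16a6 differed by -0.58 ± 0.18 (adjusted p = 0.215), the glutamine carrier Slc38a1 by -0.28 ± 0.09, Slc11a1 by -0.29 ± 0.12, Slc25a39 by -0.27 ± 0.11 and the glucose transporter Slc2a3 by -0.27 ± 0.11. Adjusted p for these 10 genes was 0.203 or above. Their TCDD and control arrays did not overlap, except for Slc11a1. Metal ion members, picked out after the values were seen, had 17 of 22 estimates below 0 without a call. Among these were 10 of 11 SLC39 zinc carriers, whose median was -0.13. Estimates above 0 made up 44.7% of all members and 48.7% of all tested probes. Some smaller groups were as one-sided: 6 of 6 vitamin and folate members and 3 of 3 vesicular and phosphate members were below 0. Of the sugar phosphate members, 0 of 3 were below 0. None of these leanings was tested.

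**Figure D3:**
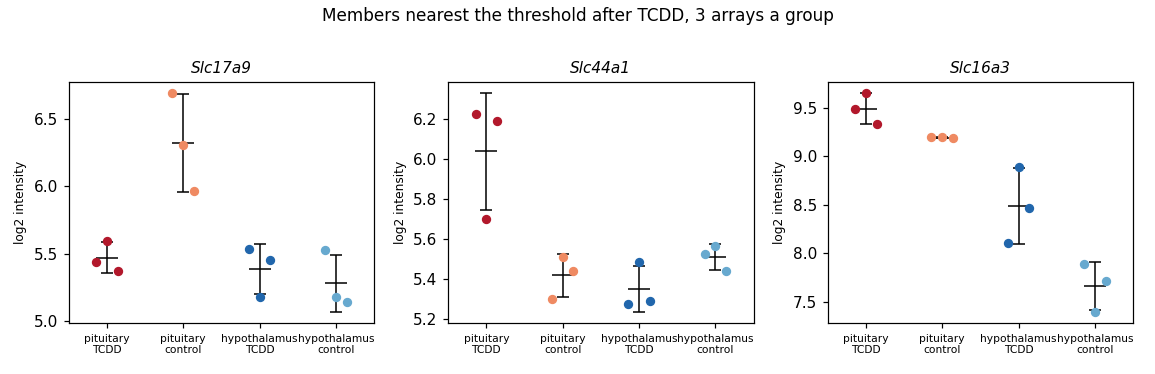
Points are single arrays on the log2 intensity scale (y axis) for the 4 groups (x axis), with the mean and SD of 3 arrays. Slc17a9 is lower and Slc44a1 higher on all TCDD pituitary arrays than on control pituitary arrays, and Slc16a3 is higher on all TCDD hypothalamus arrays than on control hypothalamus arrays.

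In the hypothalamus 0 of 190 members passed, against 0.023% of all tested probes. At an unadjusted p below 0.05 there were 17 members (8.95%), against 10.9% of all probes, and the median estimate was -0.01. The groups did not overlap for 12 members that were higher after TCDD (6.32%, against 6.97% of all probes) and 19 of 190 that were lower (against 6.97%). The interval lay within 1 log2 unit of 0 for 178 members. Slc16a3, which exports lactate from glycolytic cells, had the smallest p. It read 8.10, 8.89 and 8.47 in TCDD hypothalami, against 7.89, 7.39 and 7.71 in control hypothalami, a difference of 0.82 ± 0.18 (95% interval 0.43 to 1.21, adjusted p = 0.244) with no overlap. The lactate carrier Slc16a1 leaned the other way (-0.31 ± 0.12, adjusted p = 0.373), with no overlap either. In the pituitary Slc16a3 had 0.30 ± 0.18 and Slc16a1 had -0.09 ± 0.12.

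Among the other hypothalamic members of smallest p, the taurine transporter Slc6a6 differed by -0.37 ± 0.15, the glutamine carrier Slc38a5 by -0.46 ± 0.17, the proton exchanger Slc9a5 by -0.41 ± 0.14, the amino acid exchanger Slc7a6 by -0.33 ± 0.12 and Slc17a2 by -0.30 ± 0.12. On the higher side stood Slc22a23 (0.60 ± 0.26), the fructose transporter Slc2a5 (0.36 ± 0.16) and the zinc carrier Slc39a7 (0.22 ± 0.09). Slc25a35 and Slc43a1 were on no control array above background, and their TCDD means lay at least 1.16-fold and 1.21-fold higher. These bounds make no allowance for the spread between arrays, and neither gene passed. Adjusted p for these 10 genes was 0.294 or above, and the groups overlapped for Slc6a6, Slc22a23 and Slc2a5. Carriers of thyroid hormone showed no call in either tissue: Slco1c1 had -0.70 ± 0.29 in the pituitary and -0.31 ± 0.29 in the hypothalamus, and Slc16a10 had -0.34 ± 0.17 in the pituitary and -0.17 ± 0.17 in the hypothalamus.

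**Figure D4:**
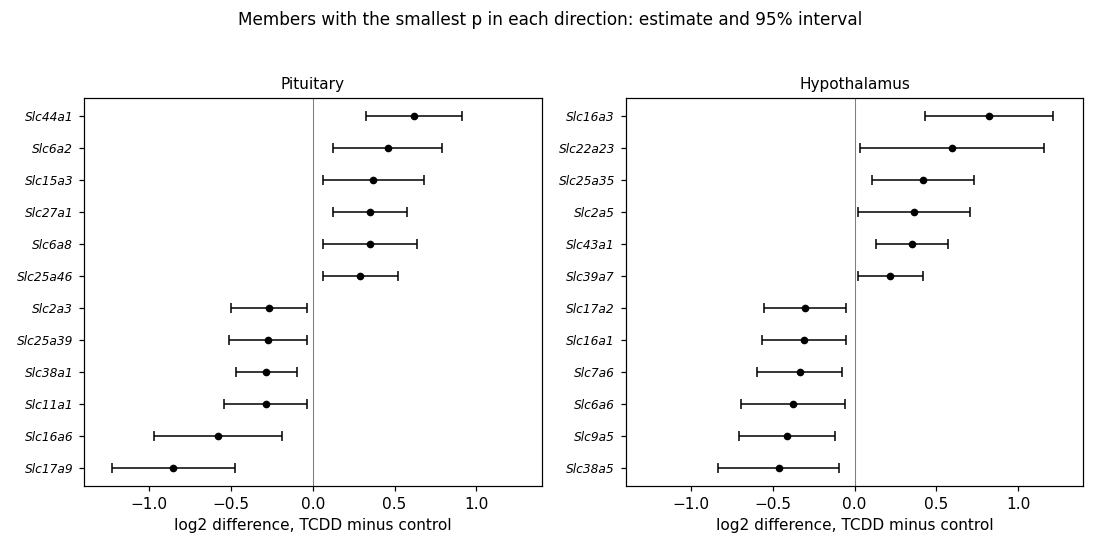
Each point is a member's log2 difference of TCDD minus control (x axis) with its 95% interval, in the pituitary (left) and the hypothalamus (right), for the 6 members of smallest p in each direction. Slc17a9 at -0.85 and Slc16a3 at 0.82 lie farthest from 0 in their panels, and none of the 24 passed after adjustment over all tested probes.

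The TCDD difference itself was not shown to depend on tissue for any member: 0 of 190 passed, against 0.2% of all tested probes, and 19 of 190 had an unadjusted p below 0.05, against 11.8% of all tested probes. The smallest p belonged to Slc44a1, whose pituitary effect minus hypothalamus effect was 0.78 ± 0.19 (adjusted p = 0.165), and it passed without pituitary TCDD replicate 2 (0.95, adjusted p = 0.0352). Slc17a9 followed at -0.96 ± 0.25, then Slc16a6 at -0.95 ± 0.26 and Slc25a46 at 0.54 ± 0.15, with adjusted p of 0.191, 0.212 and 0.219. Slc16a6 read 7.11, 7.13 and 6.97 in TCDD pituitaries, against 7.74, 7.85 and 7.37 in control pituitaries. In hypothalami it read 6.84, 7.07 and 6.70 after TCDD, against 6.18, 6.40 and 6.91 in controls. Partner proteins (16 genes), ABC transporters (17) and aquaporins and pumps (12) gave 0 calls for TCDD by limma in either tissue. At an unadjusted p below 0.05 there were 2, 4 and 0 of them in the pituitary, and 0 in the hypothalamus. The shares of all tested probes at that level were 11.5% in the pituitary and 10.9% in the hypothalamus.

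A set of members varied together between arrays of the same group, and was described after the values were seen. The 10 members with the largest pooled SD within groups, 0.54 or more against a median of 0.18 over the 190, included the dicarboxylate carrier Slc13a3, the organic anion exchangers Slc22a6 and Slc22a8, Slc6a13, the imino acid carrier Slc6a20a and Slc16a11. The others were Slc2a6, Slc6a15, Slc47a1 and Slc5a5. The next member, Slc22a2, had 0.53.

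Slc13a3 had the widest spread. It read 9.24, 8.54 and 6.28 in TCDD pituitaries (replicates 1, 2 and 5), against 6.99, 9.21 and 8.76 in control pituitaries (replicates 1, 2 and 3), and 5.98, 7.50 and 6.81 in TCDD hypothalami (replicates 1, 3 and 4), against 6.55, 8.04 and 5.61 in control hypothalami (replicates 1, 3 and 5). Slc22a6, on the same arrays, read 9.36, 8.79 and 6.73 in TCDD pituitaries, against 8.10, 10.07 and 9.33 in control pituitaries, and 7.01, 9.40 and 7.80 in TCDD hypothalami, against 7.63, 8.88 and 6.60 in control hypothalami. For both genes pituitary TCDD replicate 5 and pituitary control replicate 1 were the lowest of their groups, and replicate 3 was the highest in each hypothalamus group. Slc6a13 and Slc16a11 had the same lowest and highest arrays in these respects, and Slc6a20a did except that TCDD replicate 4 was its highest among TCDD hypothalami. Slc22a2, the next member by spread, had these lowest and highest arrays too. It read 7.10, 6.59 and 5.80 in TCDD pituitaries, against 6.50, 7.75 and 7.01 in control pituitaries. In hypothalami it read 5.47, 5.79 and 5.49 after TCDD, against 5.56, 6.37 and 5.43 in controls. On control pituitary arrays Slc22a8 read 5.92, 7.18 and 6.67, with replicate 1 again the lowest, against 5.52, 5.95 and 5.82 on control hypothalamus arrays. It read 7.15, 6.52 and 5.17 on TCDD pituitary arrays, against 5.75, 5.68 and 6.08 on TCDD hypothalamus arrays, where replicate 3 was the lowest and not the highest.

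Markers of mesenchyme and meninges followed that order in one tissue. Their medians were 7.10, 9.32 and 7.69 in TCDD hypothalami, against 7.97, 8.99 and 6.45 in control hypothalami, highest on replicate 3 of each group and lowest on the arrays where Slc13a3 was lowest. In pituitaries the medians stayed between 13.37 and 13.71 while Slc13a3 ranged over almost 3 log2 units. Log2 summed levels of the 9 markers were 13.03 to 14.43 in TCDD hypothalami, against 12.39 to 14.66 in control hypothalami. The choroid plexus marker Ttr was high on pituitary control replicate 1 (12.51) and hypothalamus TCDD replicate 3 (11.80), an order that Slc13a3 did not follow. The part of these cells in the spread was not tested. Without pituitary TCDD replicate 5 the TCDD difference of Slc13a3 in the pituitary was 0.57, against -0.30 with it, and that of Slc22a6 was -0.10, against -0.88 with it.

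**Figure D5:**
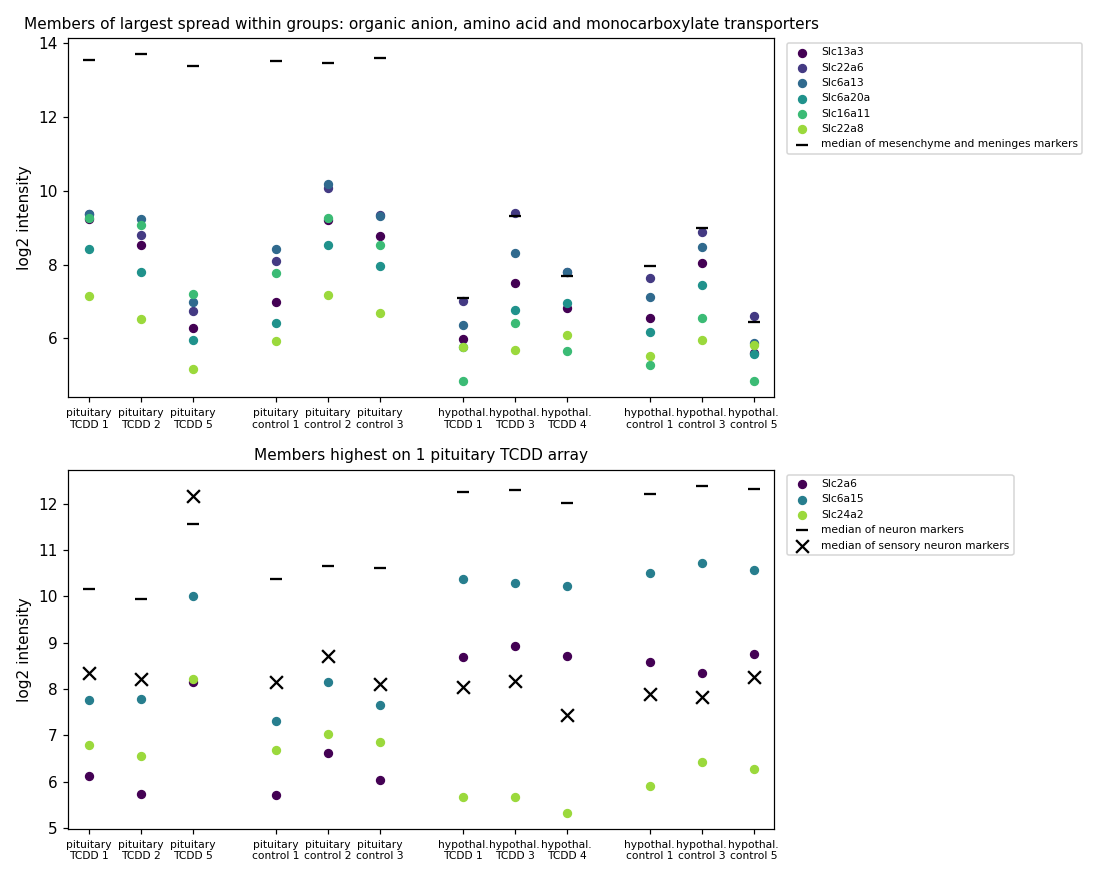
Points show log2 intensity (y axis) on each of the 12 arrays (x axis, group and replicate number). In the upper panel 6 members are lowest among TCDD pituitaries on replicate 5 and the black dashes are medians of mesenchyme and meninges markers. In the lower panel Slc6a15, Slc2a6 and Slc24a2 are highest among pituitary arrays on TCDD replicate 5, where the medians of neuron (dash) and sensory neuron (cross) markers are highest too.

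Other members were high on pituitary TCDD replicate 5. Slc6a15 read 7.76, 7.78 and 10.01 in TCDD pituitaries, against 7.32, 8.14 and 7.66 in control pituitaries, and Slc2a6 read 6.13, 5.74 and 8.15 in TCDD pituitaries, against 5.71, 6.62 and 6.03 in control pituitaries. In both cases the last TCDD array lay above all other pituitary arrays. The potassium-dependent sodium-calcium exchanger Slc24a2 read 6.79, 6.57 and 8.21 in TCDD pituitaries, against 6.68, 7.02 and 6.86 in control pituitaries. Slc7a7 read 7.78, 7.46 and 9.05 in TCDD pituitaries, against 8.17, 8.27 and 8.11 in control pituitaries. Neuron markers had medians of 10.17, 9.93 and 11.57 on the same TCDD arrays, against 10.38, 10.65 and 10.60 on control pituitary arrays, and sensory neuron markers had 8.35, 8.21 and 12.17 on TCDD pituitary arrays, against 8.15, 8.72 and 8.10 on control pituitary arrays. Their part was not tested. The TCDD difference of Slc6a15 in the pituitary was 0.81 with that array and 0.06 without it, and that of Slc2a6 was 0.55 with it and -0.19 without it. For Slc7a7 it was -0.09 with that array and -0.56 without it (limma adjusted p = 0.0697). For Slc24a2 it was 0.34 with that array and -0.18 without it. The tissue difference of Slc24a2 was 0.65 ± 0.33 with all arrays in the model (adjusted p = 0.0977) and passed at 0.00228 when that array was left out, and with median scaling (0.79, adjusted p = 0.0446).

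Several well-known carriers could not be read. Slco1a4, Slc12a2, Slc13a5 and Slc13a4 had no named probe. The probes of Slc2a1, Slc7a8, Slc7a11, Slc17a7, Slc17a8, Slc6a11 and Slc30a3 missed the detection rule, with 0 to 2 arrays above background, which says nothing of the genes' presence in the tissue. Of the 190 members, 122 were above background on all 12 arrays.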

How the data were processed

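The authors deposited, per the file headers, 1 non-normalized bead intensity and 1 detection p-value for each probe and array. A second deposited table holds the authors' processed values on a scale like log2, whose exact transform is unknown, and served only as an alternative. No source used here names the scanner software, and the files name no chip or slide. Total RNA was made into biotin-labelled cRNA, per the labels' protocols.

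Intensities of 22523 probes were background-corrected and quantile-normalized with neqc of limma 3.58.1 (R 4.3.3, offset 16, log2 output), which gives all arrays 1 distribution and shrinks differences of dim probes. Tests covered the 13018 probes with a detection p below 0.05 on 3 or more arrays. One limma model of 4 group means over 12 arrays gave two-sided moderated tests, adjusted by Benjamini-Hochberg over all tested probes (8 residual and 4.19 prior degrees of freedom), and was tested on simulated data. The number of arrays limits the precision. Symbols came from the platform annotation, with 1 for 13793 probes, several for 0 and none for the rest.

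Named genes are the 6 members of smallest p in each direction per TCDD comparison, the 15 largest called tissue differences each way, the extremes of each subfamily, the 4 smallest p of the tissue dependence, and a fixed set of well-known carriers, beside others chosen after their values were seen. The members, lists, tests and alternatives were chosen with earlier results of these data known. Substrate groups follow subfamily numbers. Promoter and neighbour information came from RefSeq GRCr8.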

Additional observations from a re-analysis of the deposited data

How the results depend on the processing

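The pituitary TCDD count of 0 became 2 with median scaling (Slc44a1 and Slc17a9), 1 with the authors' values (Slc38a1), and 1 each with an intensity trend, array weights or a replicate block within treatment (Slc17a9). Leaving out 1 array gave 0 to 1, with Slc17a9 called without hypothalamus control replicate 1 or pituitary control replicate 3, and Slc44a1 without pituitary TCDD replicate 2. The count for tissue dependence was 0 to 1 on leaving out 1 array (Slc44a1, same array), and the hypothalamus count stayed at 0 in every setting run. Median scaling moved the median TCDD difference over all probes to -0.09 in the hypothalamus and that of the tissue dependence to 0.11. Tissue calls numbered 130 to 143 in controls and 131 to 147 in TCDD arrays when 1 array was left out, and 108 of the 141 control calls held in all settings but the stricter detection filter, while 5 (Slc24a4, Slc25a17, Slc25a38, Slc38a1 and Slc52a2) turned sign in some setting. With the authors' values the called tissue differences were smaller, at a median of 0.284 times those reported. Signs turned for Slc43a1 with the authors' values (-0.0007), Slc3a2 with median scaling (-0.088), Slc6a4 without hypothalamus control replicate 5 (0.0408, in a range of -0.48 to 0.0408 on leaving out 1 array), and Slc18a1 with the authors' values (-0.0008) and with the replicate block (-0.0177), none of them past the threshold, and the cause was not tested. Deviations from group means correlated at -0.07 to 0.14 between same-numbered samples, among them pairs of a control with a TCDD sample. With 3 arrays a group, these correlations cannot decide whether same-numbered samples shared a fetus or litter. The replicate block gave 0 calls for TCDD in both tissues and 132 tissue calls in controls, against 141; with it Slc46a3 was not called (0.49, adjusted p = 0.0634) and Slc24a2 was (0.96, adjusted p = 0.0158). Reading the rule without Slco left 183 members. A chip block was not run because the files name no chip. Dim probes near background limit what can be seen, as with Slc17a9 and Slc44a1.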

Other observations

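The array also detected 18 solute carrier genes with other letters in their symbols, Slc8b1 and 17 of the SLC35 family. Between control pituitaries and control hypothalami 6 of them were higher, 7 lower and 5 not past the test. Over all tested probes 33.7% were higher and 35.9% lower. Slc35d2, a nucleotide sugar transporter, differed by 1.95 ± 0.14 (adjusted p = 9.94e-08) and Slc8b1, the mitochondrial sodium-calcium exchanger, by 1.24 ± 0.12. Slc35g2 lay on the other side at -1.24 ± 0.16. For TCDD 0 of the 18 passed by limma in either tissue, and 2 had an unadjusted p below 0.05 in the pituitary and 4 in the hypothalamus. The shares of all tested probes at that level were 11.5% and 10.9%.

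Among the 4 detected genes left out by name, tissue differences were -4.21 ± 0.59 for the vesicular glutamate transporter Slc17a6 and 0.63 ± 0.12 for the iron exporter Slc40a1. The dopamine transporter Slc6a3 and the vesicular monoamine transporter Slc18a2 were above background on no control pituitary array and were at least 12.8-fold and 3.71-fold lower there. The TCDD difference of Slc40a1 depended on tissue (1.05 ± 0.16, limma adjusted p = 0.0256). It was 0.40 ± 0.12 in the pituitary (adjusted p = 0.193) and -0.65 ± 0.12 in the hypothalamus (adjusted p = 0.235). Groups did not overlap in either tissue. Slc17a6, Slc18a2 and Slc6a3 had adjusted p of 0.728 or above for tissue dependence.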
